A study of Medicago truncatula with 18 samples.

Results

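The comparison described here is LD against SD at ZT4, 4 h after lights on, in the first trifoliate leaf of *Medicago truncatula*. Its members are the 6 libraries labelled ZT4 out of 18 in the series, 3 from LD and 3 from SD, and all 50444 genes of the deposited tables. All plants were of the accession Jester, were vernalised as germinated seed at 4 °C for 25 days and were grown in SD (8 h light, 16 h dark) for 10 days. The SD group stayed in that regime, while the LD group was moved to 16 h light and 8 h dark with dawn kept at the same hour. Both groups were harvested at 15 days of age, when the LD plants had spent 5 days in LD. Each library holds 2 pooled leaves from different plants, so a replicate is a pool and not a plant, and the day length and the total light received each day cannot be told apart. In pooled leaf tissue, fewer cells of a type and less RNA per cell cannot be told apart either.

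In plants that flower in response to long days, leaves measure day length by setting an internal clock against the light they perceive through phytochromes and cryptochromes. In Arabidopsis the clock output genes *GIGANTEA* (*GI*) and *FKF1* act in blue light to remove CYCLING DOF FACTOR (CDF) repressors, after which CONSTANS can switch on *FT*, whose protein is the florigen that moves from leaf to shoot tip. In *M. truncatula* the *FT-like* genes *MtFTa1*, *MtFTb1* and *MtFTb2* are the known LD-responsive members of that family. The same clock also times starch breakdown, sugar handling and growth, which is why those genes were followed alongside the photoperiod genes.

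The estimated counts of the 6 libraries summed to between 20690658 and 23201592, and 3 counts in a library was the floor used below. No library repeated another, since counting noise alone would give a chi-square near 1 for each gene and pairs within SD gave 2.30 to 3.39, pairs within LD 11.1 to 26.98. The LD libraries were the more variable group, with a median coefficient of variation of 11.5% across 20042 genes against 7.05% in SD. On the first principal component (55.5% of the variation) the LD libraries lay between -79.2 and -57.4 and the SD libraries between 69.1 and 72.0. The labelled tissue could be checked by 11 described genes for the small subunit of rubisco and for chlorophyll-binding proteins, which together took 98971 to 109893 TPM in LD and 70800.1 to 72619 TPM in SD, with none at 0. These 11 genes are drawn from the described genes set out further below, and 10 of them were called higher in LD.

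The response to day length at ZT4 was broad. Of 29011 genes with a total of more than 1 count over the 6 libraries, 9024 (31.1%) passed edgeR's quasi-likelihood test at an adjusted p under 0.05, 4409 of them higher in LD (15.2%) and 4615 lower (15.9%). Without TMM scaling, with library totals alone, 3514 were higher and 5924 lower, which takes the share of rises from 48.9% to 37.2%. With the study's definition of differential expression (DE), an adjusted p under 0.05, a change of more than 2-fold and a mean normalised count above 10, there were 2849 DE genes (9.82%), 1358 higher (4.68%) and 1491 lower (5.14%) in LD. A 4-fold change was exceeded by 283 of the rises and 398 of the falls, and an 8-fold change by 90 and 103. The LD and SD libraries did not overlap in 2819 of the DE genes, against 44.4% of all genes tested, and since the DE genes were called on these libraries nothing is read from that count. The DE genes that were higher in LD held 5.83% of all TPM there against 2.53% in SD, while those that were lower held 1.44% against 5.17%. The median log2 fold change of all genes tested was -0.0071.

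**Figure D1:**
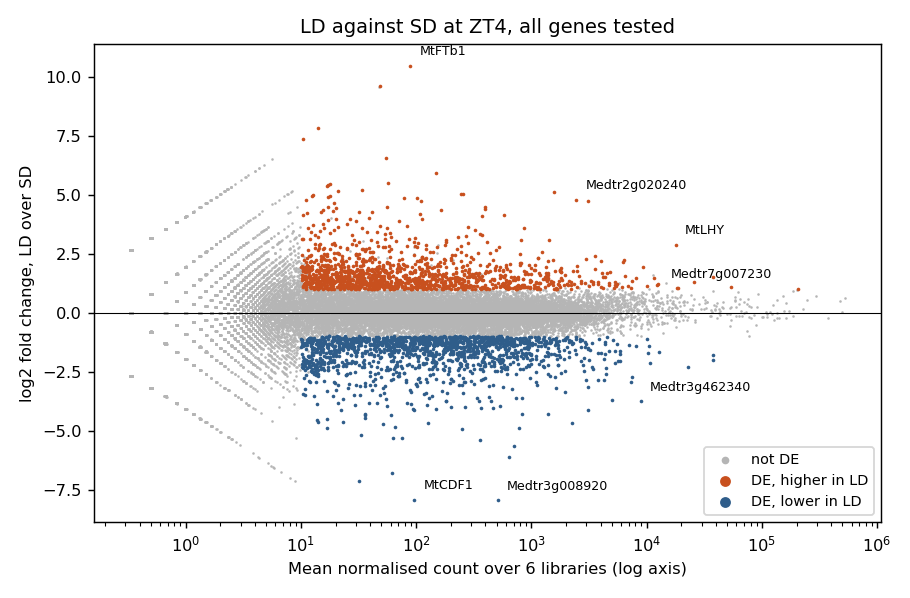
Each point is a gene tested in LD against SD at ZT4, placed by its mean normalised count over the 6 libraries (log axis) and its fitted log2 fold change, with the 1358 DE genes higher in LD in orange and the 1491 lower in LD in blue. Labels mark *MtFTb1* at the top, *MtCDF1* and *Medtr3g008920* at the bottom, and *MtLHY*, *Medtr2g020240*, *Medtr7g007230* and *Medtr3g462340* among the more abundant DE genes.

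*FT-like* genes led the rises. *MtFTb1* (*Medtr7g006630*) had 12.2, 14.2 and 13.4 TPM in LD and 0, 0 and 0 TPM in SD, and *MtFTb2* (*Medtr7g006690*) had 6.79, 6.79 and 7.395 TPM in LD and 0, 0 and 0 TPM in SD. Neither gene had a count in SD, and against the floor of 3 counts a library they were at least 59.2-fold and at least 32.6-fold higher in LD (adjusted p = 8.70e-07 and 2.68e-06). *MtFTa1* (*Medtr7g084970*) had 10.2, 7.61 and 5.52 TPM in LD and 0.151, 0 and 0.0752 TPM in SD, with 3 counts in all over the SD libraries. Its ratio of LD to SD was 109, with an exact 95% counting interval of 36.6 to 526 (adjusted p = 3.58e-06). Salmon shares reads between similar transcripts, so the division between the *MtFTb* paralogs is less certain than their sum.

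*MtFTa2* (*Medtr7g085020*), close to *MtFTa1* by gene number, moved the other way. It had 1.69, 1.06 and 1.26 TPM in LD and 2.96, 2.87 and 2.57 TPM in SD. The 2 groups did not overlap, which held for 44.4% of all genes tested, so nothing is read from that. The difference was 1.96-fold, lower in LD (log2 fold change -0.97, standard error 0.23, adjusted p = 0.00924). The fifth member, *MtFTa3* (*Medtr6g033040*), had 0 counts in all 6 libraries and was not tested. The 4 members tested, 3 called higher and 1 lower, had a median log2 fold change of 8.10, or 5.46 when the genes at 0 in SD are set at their bound.

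The 12 highest ranked rises and falls were chosen by the log2 fold change fitted with a prior count of 2, which ranks genes with few reads lower than the printed folds would, so some genes described further on have larger folds. Besides the *FT-like* genes, the highest ranked rises included genes of sugar release, cell walls and regulation. A beta-amylase gene (*Medtr2g020240*), whose product cuts maltose from starch, had 100.3, 89.8 and 82.3 TPM in LD and 3.83, 3.64 and 3.61 TPM in SD, a 27.6-fold difference with an adjusted p of 4.24e-09. The Dof gene *MtCDF5* (*Medtr6g027460*) had 5.54, 6.01 and 5.89 TPM in LD and 0.221, 0.295 and 0.126 TPM in SD (29.2-fold). A pectinesterase gene (*Medtr8g102380*), of a class that demethylates cell wall pectin, had 4.49, 7.65 and 6.06 TPM in LD and 0.288, 0.377 and 0.108 TPM in SD (27.1-fold). The remaining 6 of these 12 rises had no description in the tables used here. *Medtr4g099110* was the most abundant of these, at 116, 109 and 100.1 TPM in LD and 4.97, 4.75 and 3.48 TPM in SD (26.4-fold). The largest of these by fold was *Medtr4g094715*, at 4.73, 7.09 and 8.26 TPM in LD and 0.0486, 0.126 and 0.1703 TPM in SD (63.3-fold), and *Medtr2g032710*, *Medtr5g071170*, *Medtr7g116520* and *Medtr6g452990* were between 22.7-fold and 33.3-fold higher. All 12 rises had an adjusted p of at most 7.55e-05.

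The highest ranked falls were of similar size. *MtCDF1* (*Medtr2g059540*), a gene of the CDF family, had 0.0603, 0 and 0.0576 TPM in LD and 11.4, 11.05 and 14.1 TPM in SD, with 2 counts in all over the LD libraries. The ratio of SD to LD was 288, with an exact 95% counting interval of 79.9 to 2401 (adjusted p = 1.80e-07). *Medtr3g008920* encodes a membrane channel of the major intrinsic protein (MIP) family and had 0.177, 0.128 and 0.212 TPM in LD and 43.4, 46.7 and 52.4 TPM in SD. With reads in every library it was 256-fold lower in LD (log2 fold change -7.96, standard error 0.16, adjusted p = 5.12e-09). A nodulin-like transporter gene of the major facilitator family (*Medtr3g099150*) had 0.552, 0.217 and 0.256 TPM in LD and 23.2, 23.7 and 28.9 TPM in SD (69.5-fold lower). *MtFKF1* (*Medtr8g105590*) is named for the blue light receptor of the Arabidopsis pathway outlined above. It was even in LD at 0.238, 0.241 and 0.244 TPM and stood at 6.89, 7.77 and 9.57 TPM in SD (30.9-fold lower in LD, adjusted p = 7.23e-08).

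Cytochrome P450 genes of family 71 contributed another pair of falls. *Medtr4g025970* had 0.0591, 0 and 0.0253 TPM in LD and 2.88, 2.79 and 4.42 TPM in SD, and *Medtr5g070700* had 0.06601, 0.0627 and 0.0631 TPM in LD and 2.71, 2.83 and 3.01 TPM in SD. Since both were at the floor in LD, their ratios of 123.3 and 41.5 carry counting intervals of 42.1 to 603 and 21.6 to 91.5. The most abundant of the 12 highest ranked falls was *Medtr4g082883*, annotated as a hypothetical protein, at 51.8, 24.4 and 19.1 TPM in LD and 829, 838 and 886 TPM in SD (25.3-fold lower). The undescribed *Medtr4g029730* had 15.1, 7.38 and 2.303 TPM in LD and 443, 414 and 459 TPM in SD (50.3-fold lower), and relative to their mean its LD libraries differed more among themselves than the SD libraries did. *Medtr3g462220*, described as a putative maternal effect embryo arrest gene, was 43.1-fold lower, and the undescribed *Medtr4g035905* and *Medtr7g406880* were 29.3-fold and 40.6-fold lower. The undescribed *Medtr1g083440*, with 1 read in LD, had a ratio of 195 with a counting interval of 34.3 to 7677. All 12 falls had an adjusted p of at most 3.97e-06.

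In the Arabidopsis step outlined above, CDF proteins are the repressors and FKF1 is the blue light receptor. *MtCDF1* and *MtFKF1* both fell, and whether they act in that step was not tested. The primers with which the study followed them by RT-qPCR identify the transcripts and are given here 5′ to 3′, all in lower case because no base is singled out. *MtCDF1* lies on chromosome 2 and *MtFKF1* on chromosome 8 by their gene identifiers.
*MtCDF1* forward: tgtggtacagcatggagactc
*MtCDF1* reverse: agactgatcaacggtgttagca
*MtFKF1* forward: tcaactgggtatcgtgctca
*MtFKF1* reverse: aacgactggatccaccaaag

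The reference genes of those RT-qPCR assays were added to the named genes after the lists were set. The *PP2A* regulatory subunit gene (*Medtr6g084690*) had 22.2, 23.8 and 22.1 TPM in LD and 26.5, 26.8 and 29.4 TPM in SD, and its difference did not pass the test (log2 fold change -0.16, adjusted p = 0.138), though it did with library totals in place of TMM (adjusted p = 0.0224). The tubulin beta-1 chain gene (*Medtr7g089120*) had 18.7, 25.7 and 26.3 TPM in LD and 20.9, 18.1 and 22.1 TPM in SD. It did not pass either (log2 fold change 0.34, adjusted p = 0.108), but passed without LD replicate 1 (adjusted p = 0.0016), the lowest of the LD libraries.

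Of the candidate photoperiod genes the study collected, 131 were tested and 81 were called (61.8%, against 31.1% of all genes). They divided into 37 that were higher and 44 that were lower in LD, with 35 DE (16 higher and 19 lower) and a median log2 fold change of -0.07. A further 15, among them *MtPHYE* and *MtFULc*, had at most 1 count in any library and were not tested. Over all genes tested the share called rose with level, from 10.8% at mean counts of 1 to 10 to 56.9% at 1000 or more. Of the 131 candidates 116 had a mean above 10, against 20042 of the 29011 genes tested, so these shares do not compare genes of like level. Family counts below stand beside 15.2% of all genes called higher and 15.9% called lower, with the same limit. The families are taken below in the order of the pathway from light perception to florigen.

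**Figure D2:**
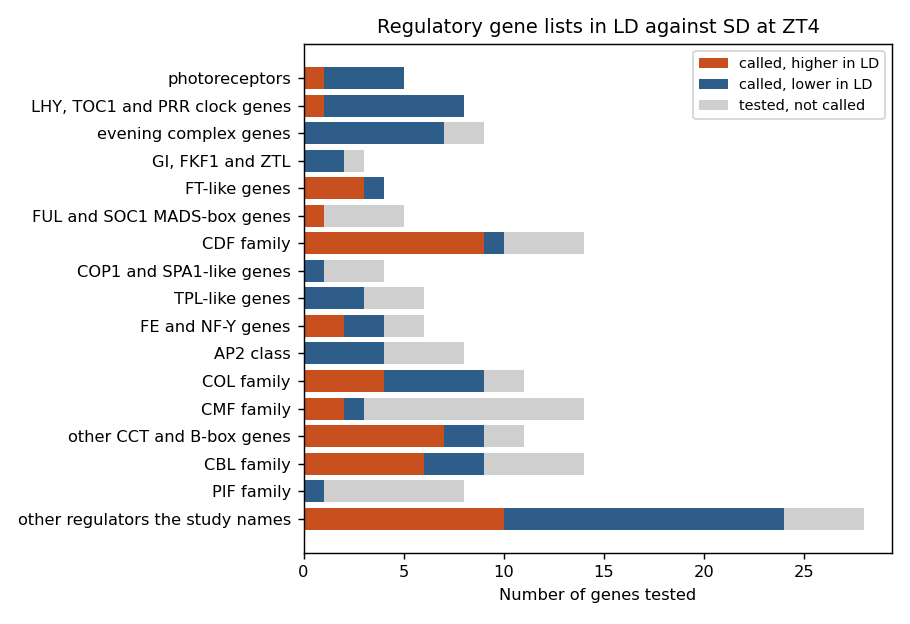
Bars show, for each list of regulatory genes with more than 1 gene tested, how many were called higher in LD (orange), called lower in LD (blue) or tested and not called (grey). Clock and evening complex genes were called almost wholly lower, with 7 of 8 and 7 of 9, and CDF genes mostly higher, with 9 of 14.

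The 5 photoreceptor genes tested all passed the test, 4 of them lower in LD. *MtPHYA* (*Medtr1g085160*), the phytochrome that accumulates in the dark, had 8.398, 6.97 and 7.37 TPM in LD and 25.2, 24.5 and 24.7 TPM in SD (3.02-fold lower, adjusted p = 4.22e-07). *MtCRY2B* (*Medtr1g043190*), a cryptochrome for blue light, had 1.09, 0.877 and 0.767 TPM in LD and 8.05, 8.34 and 8.01 TPM in SD (8.296-fold lower, adjusted p = 1.02e-07). Its relative *MtCRY2A* (*Medtr1g076190*) had 27.2, 21.6 and 23.95 TPM in LD and 41.2, 40.2 and 40.1 TPM in SD, a 1.55-fold difference in the same direction (adjusted p = 2.35e-04). *MtCRY1* (*Medtr5g063920*) differed by only 1.17-fold (69.6, 61.1 and 56.2 TPM in LD and 79.1, 79.1 and 80.1 TPM in SD), and its adjusted p of 0.0365 rose to between 0.0684 and 0.118 when LD replicate 2, LD replicate 3 or any single SD library was left out. With the replicate number as a block it was 0.0618. *MtPHYB* (*Medtr2g034040*) was the one that was higher in LD, at 5.902, 4.81 and 4.797 TPM in LD and 4.17, 4.59 and 4.31 TPM in SD (1.28-fold, adjusted p = 0.008595), a call that did not hold without SD replicate 3 (adjusted p = 0.0512). That call was also lost with library totals in place of TMM (adjusted p = 0.0597). Without SD replicate 3, 3 of the 5 were called.

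Among the core clock genes 1 was higher and 7 were lower in LD. *MtLHY* (*Medtr7g118330*) encodes the MYB repressor that in Arabidopsis peaks around dawn. It had 433, 392 and 390.4 TPM in LD and 63.9, 60.4 and 52.4 TPM in SD, 7.43-fold more in LD (log2 fold change 2.89, standard error 0.089, adjusted p = 4.17e-08). All 7 *PRR* and *TOC1* genes, pseudo-response regulators that follow one another through the day and repress *LHY* in Arabidopsis, were lower in LD. *MtPRR59a* (*Medtr3g092780*) had 2.59, 1.697 and 1.55 TPM in LD and 38.1, 39.7 and 46.2 TPM in SD (19.8-fold lower, adjusted p = 8.06e-08). *MtPRR37a* (*Medtr4g061360*) had 24.8, 15.6 and 13.8 TPM in LD and 98.97, 99.9 and 97.98 TPM in SD and *MtPRR37b* (*Medtr1g067110*) had 17.5, 12.04 and 11.5 TPM in LD and 58.1, 62.1 and 61.9 TPM in SD, 5.12-fold and 4.15-fold lower. For each of these 3 genes, LD replicate 1 was the highest LD library and was still far below the lowest SD library.

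*MtPRR59b* (*Medtr8g024260*) and *MtPRR59c* (*Medtr7g118260*) were 4.01-fold and 3.695-fold lower in LD, at 10.3, 6.61 and 7.35 TPM and 23.2, 15.2 and 14.2 TPM in the LD libraries against 34.2, 34.4 and 35.8 TPM and 69.4, 69.5 and 68.4 TPM in SD. The evening genes *MtTOC1a* (*Medtr4g108880*) and *MtTOC1b* (*Medtr3g037390*) had the smallest differences, 1.93-fold and 1.59-fold, and low levels of at most 3.44 and 4.93 TPM. The median log2 fold change of the 8 genes was -1.94.

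**Figure D3:**
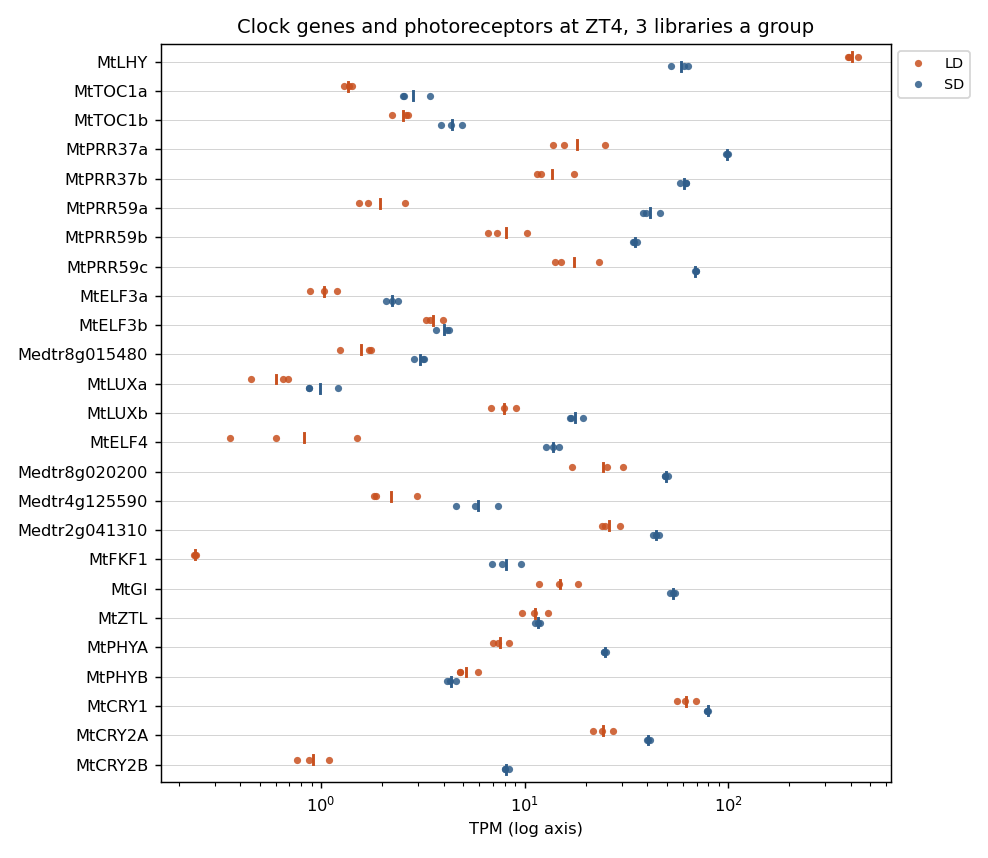
Points are the TPM of single libraries on a log axis, LD in orange and SD in blue, and short vertical lines are the means of 3 libraries, for the LHY, PRR and TOC1 genes, the evening complex genes, *MtGI*, *MtFKF1* and *MtZTL*, and the photoreceptors. *MtLHY* lies to the right in LD while the *PRR* genes lie to the left, and *MtELF3b* and *MtZTL* overlap.

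Evening complex genes, whose products ELF3, ELF4 and LUX together repress *PRR* and growth genes at night in Arabidopsis, were lower in LD in 7 of 9 tested, with none higher. *MtELF4* (*Medtr3g070490*) had 1.505, 0.603 and 0.357 TPM in LD and 12.7, 13.8 and 14.7 TPM in SD (15.99-fold lower, adjusted p = 7.52e-06). *MtELF3a* (*Medtr3g103970*) had 0.881, 1.19 and 1.04 TPM in LD and 2.24, 2.09 and 2.39 TPM in SD (1.98-fold lower, adjusted p = 5.66e-04), and *MtLUXb* (*Medtr7g089010*) had 9.12, 6.81 and 7.94 TPM in LD and 19.5, 16.7 and 16.98 TPM in SD (2.05-fold lower, adjusted p = 5.95e-05). The 4 further *early flowering* genes of the list, *Medtr8g015480*, *Medtr8g020200*, *Medtr4g125590* and *Medtr2g041310*, were 1.53-fold to 2.52-fold lower (adjusted p at most 0.00519). *MtELF3b* (*Medtr1g016920*), at 3.97, 3.29 and 3.44 TPM in LD and 4.14, 4.27 and 3.66 TPM in SD, and *MtLUXa* (*Medtr4g064730*), at 0.654, 0.693 and 0.453 TPM in LD and 0.869, 1.22 and 0.869 TPM in SD, did not pass the test (adjusted p = 0.594 and 0.119). The median over the list was -0.92.

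*MtGI* (*Medtr1g098160*), the partner of FKF1, had 18.4, 14.8 and 11.8 TPM in LD and 51.6, 53.6 and 55.03 TPM in SD (3.303-fold lower, log2 fold change -1.72, standard error 0.12, adjusted p = 4.10e-06). With *MtFKF1* this gave 2 of 3 genes lower in LD. *MtZTL* (*Medtr2g036510*), which encodes a relative of FKF1 that in Arabidopsis targets TOC1 for breakdown, had 13.1, 11.2 and 9.72 TPM in LD and 11.2, 11.9 and 11.7 TPM in SD and no detectable difference (adjusted p = 0.5197). Its sign turned with library totals in place of TMM.

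The CDF family, DOF zinc finger repressors of *CONSTANS* and *FT* in Arabidopsis, moved mostly the other way from *MtCDF1*. Of 14 genes tested 9 were called higher in LD and only *MtCDF1* lower, 4 of the rises and *MtCDF1* being DE, with a median log2 fold change of 2.36. That median lies between *MtCDFe* (2.43) and *MtCDFg* (2.28), which had at most 3 counts in an SD library. With a prior count of 2 these genes were at 1.41 and 1.53, so the median rests on genes near the floor. *MtCDF4* (*Medtr6g012450*) had 10.8, 7.95 and 9.07 TPM in LD and 1.95, 1.59 and 1.95 TPM in SD (5.48-fold higher, adjusted p = 7.08e-07). *MtCDF6* (*Medtr7g010950*) had 8.76, 6.37 and 6.64 TPM in LD and 1.47, 1.399 and 1.42 TPM in SD and *MtCDF3* (*Medtr5g041530*) had 5.01, 4.43 and 4.97 TPM in LD and 0.767, 0.645 and 0.7397 TPM in SD, 5.48-fold and 7.199-fold higher (adjusted p = 7.73e-07 and 6.74e-07). *MtCDFc* (*Medtr4g082060*) was 1.62-fold higher (adjusted p = 5.14e-04). In each of these 4 genes the lowest LD library was above the highest SD library. The groups lay apart, in one direction or the other, in 44.4% of all genes tested. Since these 4 genes were called on the same libraries, nothing is read from it.

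The remaining CDF calls rested on few reads. *MtCDF2* (*Medtr5g041420*) had 2.96, 4.92 and 7.13 normalised counts in LD and 0, 0 and 0.982 in SD, a ratio of 15.3 with a counting interval of 2.29 to 627 (adjusted p = 0.0199). It lost its call without LD replicate 2 or 3 or SD replicate 1 or 2 (adjusted p 0.0527 to 0.0725). *MtCDFf* (*Medtr6g027450*), at a ratio of 15.2 (2.29 to 627), kept its call with any 1 library left out. *MtCDFe* (*Medtr5g041400*) and *MtCDFg* (*Medtr7g086780*), at ratios of 5.85 (1.74 to 31.6) and 5.22 (1.95 to 17.2), did not, as leaving out LD replicate 1, LD replicate 2 or SD replicate 1 brought both past 0.05, as did leaving out LD replicate 3 or SD replicate 3 for *MtCDFe* and SD replicate 2 for *MtCDFg* (adjusted p 0.055 to 0.108). With the replicate number as a block, *MtCDFe*, *MtCDFf* and *MtCDFg* had adjusted p-values of 0.081, 0.0509 and 0.0566. With DESeq2, *MtCDF2*, *MtCDFe* and *MtCDFg* were not called either (adjusted p = 0.051, 0.1 and 0.0604). Among the 4 CDF genes not called, *MtCDFb* (*Medtr3g435480*) was the most abundant member of the family, at 43.9, 31.6 and 27.96 TPM in LD and 28.7, 27.9 and 30.6 TPM in SD (adjusted p = 0.0597), and passed the test without LD replicate 3, with DESeq2 or its size factors, with other filters on low counts and with the replicate block (adjusted p 0.0236 to 0.0491). *MtCDFa* (*Medtr2g016030*), *MtCDFd* (*Medtr5g041380*) and *MtCDFh* (*Medtr8g044220*) had log2 fold changes of -0.31, 0.93 and 0.26.

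**Figure D4:**
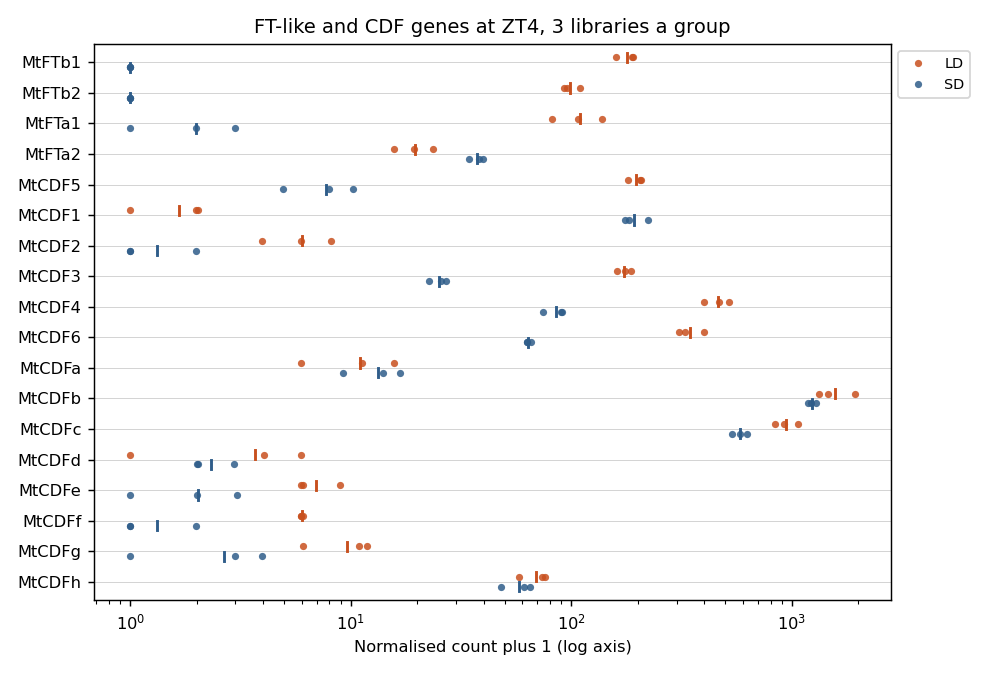
Points are normalised counts plus 1 of single libraries on a log axis, LD in orange and SD in blue, with the mean of 3 libraries as a short vertical line, for the 4 *FT-like* and the 14 CDF genes tested. *MtFTb1* and *MtFTb2* stand at 0 counts in all SD libraries, *MtCDF1* is the CDF gene far to the left in LD, and *MtCDF3* to *MtCDF6* lie to the right in LD.

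CONSTANS-LIKE (COL) genes, relatives of the *FT* activator of Arabidopsis, had no common direction, with 4 of 11 higher, 5 lower and a median of -0.19. *MtCOLf* (*Medtr5g069480*) was the one DE rise, at 4.18, 5.54 and 5.18 TPM in LD and 0.996, 1.12 and 0.917 TPM in SD (5.21-fold, adjusted p = 5.58e-06). *MtCOLe* (*Medtr3g082630*), at 0.154, 0.09800 and 0.123 TPM in LD and 1.87, 1.58 and 2.43 TPM in SD, and *MtCOLh* (*Medtr7g083540*), at 0.876, 0.526 and 1.01 TPM in LD and 2.25, 3.14 and 3.19 TPM in SD, were 14.6-fold and 3.297-fold lower (adjusted p = 6.07e-06 and 4.05e-04). *MtCOLb* (*Medtr1g013450*) was 1.73-fold and *MtCOLa* (*Medtr7g018170*) 1.32-fold higher in LD, and *MtCOLc* (*Medtr3g105710*) 1.23-fold higher, a call lost with library totals in place of TMM (adjusted p = 0.0545). *MtCOLk*, *MtCOLd* and *MtCOLi*, lower by 1.22-fold to 1.43-fold, each lost the call without SD replicate 2 (adjusted p 0.0569 to 0.079). *MtCOLk* also lost it without LD replicate 3 or SD replicate 1, and *MtCOLd* and *MtCOLi* without LD replicate 2 or SD replicate 3.

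Other genes with a CCT domain or a B-box, a zinc finger shared with CONSTANS, were called in 9 of 11, 7 of them higher, with a median of 0.93. *Medtr4g046640* had 12.1, 7.14 and 6.12 TPM in LD and 0.263, 0.279 and 0.131 TPM in SD, with at most 2 reads in an SD library, a ratio of 39.6 and a counting interval of 16.8 to 124 (adjusted p = 1.20e-05). *Medtr2g073370* went the other way, at 0.115, 0.219 and 0.146 TPM in LD and 3.68, 5.49 and 6.14 TPM in SD (29.5-fold lower, adjusted p = 2.40e-06). The most abundant member, the salt tolerance-like gene *Medtr2g099010*, had 914, 875 and 742 TPM in LD and 335, 334 and 304 TPM in SD (2.75-fold higher, adjusted p = 8.56e-07), while a second salt tolerance-like gene, *Medtr4g067320*, was 1.62-fold lower. *Medtr4g008050* and *Medtr2g089310* were 3.18-fold and 1.92-fold higher. Of the CCT-only CMF family, 3 of 14 were called. *MtCMF2* (*Medtr4g127420*) was the one DE gene, at 11.4, 15.02 and 14.4 TPM in LD and 33.98, 34.9 and 37.01 TPM in SD (2.39-fold lower, adjusted p = 2.44e-05). *MtCMF10* (*Medtr3g091340*) was 1.601-fold higher. *MtCMF12* (*Medtr2g096080*), on few reads, had a ratio of LD to SD of 6.64 with a counting interval of 1.96 to 34.8 (adjusted p = 0.0357), and its call was lost without LD replicate 1, LD replicate 3 or any single SD library (adjusted p 0.0553 to 0.113), with DESeq2 (0.0774) and with the replicate block (0.0735).

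TEMPRANILLO genes encode repressors of *FT* in Arabidopsis, and *MtTEM1* (*Medtr1g093600*) had 5.62, 6.16 and 4.19 TPM in LD and 15.3, 15.7 and 16.97 TPM in SD (2.76-fold lower, adjusted p = 1.18e-05). Of the 8 AP2 class genes 4 were called, all lower, and *MtTEM1* was the one DE gene. The others, *MtTEM2*, *MtTOE1a* and *MtAP2b*, were 1.22-fold to 1.71-fold lower and all 3 lost the call without LD replicate 2, SD replicate 2 or SD replicate 3 (adjusted p 0.0505 to 0.126), *MtTEM2* and *MtAP2b* also without SD replicate 1 and *MtAP2b* without LD replicate 3. Without LD replicate 2, SD replicate 2 or SD replicate 3 only 1 AP2 class gene was called, and without SD replicate 1 there were 2. *MtE1* (*Medtr2g058520*), relative of a flowering repressor of soybean, was higher at 1.75, 1.89 and 3.404 TPM in LD and 0.974, 1.34 and 0.524 TPM in SD (2.68-fold, adjusted p = 0.0199), a call lost without LD replicate 3, SD replicate 1 or SD replicate 3 (adjusted p 0.073 to 0.0964).

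Among the other parts of the pathway, the SPA1-like gene *Medtr8g027985* had 14.4, 12.8 and 11.4 TPM in LD and 41.4, 41.3 and 42.8 TPM in SD (3.02-fold lower, adjusted p = 4.83e-07). In Arabidopsis SPA1 works with COP1, a ubiquitin ligase that removes light-signalling proteins in the dark. *Medtr8g027985* was the only one of 4 COP1 and SPA1-like genes called, and without LD replicate 3 there were 2. Of 6 *TOPLESS*-like corepressor genes tested, *Medtr7g112460*, *Medtr4g114980* and *Medtr4g009840* were 1.38-fold to 1.64-fold lower (adjusted p at most 0.00231). *MtFE* (*Medtr6g444980*), whose Arabidopsis counterpart acts upstream of *FT*, was 1.54-fold higher. Among NF-Y genes, subunits of a complex that binds CCAAT boxes, *Medtr7g113680* was 1.35-fold higher and *Medtr5g095740* 1.66-fold lower. *MtSOC1a* (*Medtr7g075870*), a MADS-box floral integrator, had 12.3, 9.93 and 10.6 TPM in LD and 7.09, 6.11 and 6.13 TPM in SD (1.82-fold higher, adjusted p = 3.87e-04), the only one called among 5 *FUL* and *SOC1* genes, with 2 called without LD replicate 1 or SD replicate 3.

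Of 14 CBL genes, relatives of the cryptochrome-interacting bHLH factors, 6 were higher and 3 lower, with a median of 0.16. *MtCBL4* (*Medtr8g012290*), at 0.773, 0.799 and 0.895 TPM in LD and 0.364, 0.498 and 0.266 TPM in SD, and *MtCBL11* (*Medtr5g037250*), at 5.79, 4.99 and 2.96 TPM in LD and 2.34, 2.34 and 2.09 TPM in SD, were 2.34-fold and 2.17-fold higher, and *MtCBL2* (*Medtr4g070320*), *MtCBL12* (*Medtr7g092510*) and *MtCBL1* (*Medtr3g116770*) were 1.59-fold to 1.802-fold lower (adjusted p at most 6.04e-04). Of 8 PIF genes, phytochrome-interacting factors that promote growth, only *MtPIF45* was called, 1.204-fold lower, and it did not pass without LD replicate 2 or any single SD library (adjusted p 0.0511 to 0.0840). Without LD replicate 3 there were 2 PIF calls.

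The study's text names 28 further regulators, and since they were picked on these libraries among others, their counts are no independent evidence of a direction. Of these, 24 were called, 10 higher and 14 lower, with a median of -0.70. Ran-binding zinc finger genes stood on both sides, with *Medtr6g069400* at 1.41, 1.78 and 3.27 TPM in LD and 17.2, 13.97 and 16.5 TPM in SD (6.76-fold lower) and *Medtr4g113840* at 1.03, 2.08 and 1.66 TPM in LD and 0, 0.111 and 0 TPM in SD, a ratio of 46.4 with a counting interval of 8.15 to 1921. A WRKY gene (*Medtr3g031220*) had 0.194, 0.04104 and 0 TPM in LD and 1.12, 1.39 and 1.302 TPM in SD (15.5-fold lower). An ovate family repressor gene (*Medtr7g105780*) had 9.83, 7.59 and 7.66 TPM in LD and 39.2, 33.5 and 37.8 TPM in SD (4.12-fold lower), and a gene similar to membrane-associated kinase regulators (*Medtr1g099440*) had 40.4, 41.9 and 46.2 TPM in LD and 10.7, 11.7 and 9.69 TPM in SD (4.25-fold higher). The NF-Y gene *Medtr8g091720* was 5.51-fold higher, and the *TERMINAL FLOWER 1*-like gene *Medtr0020s0120* had at most 2 reads in an LD library, a ratio of 7.303 and a counting interval of 2.22 to 38.5.

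Functional lists could be drawn only from the 4416 tested genes (15.2%) for which the study's tables give a description. That subset is not even-handed, since 61.9% of it was called, 1870 genes higher and 863 lower, with a median log2 fold change of 0.32. The counts below are to be read against those values and not against all genes.

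Photosynthesis genes shifted upward by small amounts. Of 16 light harvesting and photosystem genes 13 were higher in LD and none lower, with a median log2 fold change of 0.52 and a summed level of 6064 to 6985 TPM in LD against 4711 to 4888 TPM in SD. None was DE. Of 9 carbon fixation genes 8 were higher (median 0.62). The rubisco small subunit gene *Medtr7g007230* alone had 16896, 19257 and 20157 TPM in LD and 10154, 9968 and 9613 TPM in SD (2.04-fold, adjusted p = 1.19e-05), which made it the most abundant DE gene. The lowest LD library was above the highest SD library, and the groups lay apart in 2819 of the 2849 DE genes.

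The other most abundant DE genes that were lower in LD were of several kinds. A gene for CP12-1 (*Medtr1g087030*), a small protein that holds Calvin cycle enzymes inactive in the dark, had 852, 784 and 769 TPM in LD and 2506, 2765 and 2855 TPM in SD (3.18-fold lower, adjusted p = 1.80e-07). A fructose-bisphosphate aldolase gene (*Medtr5g096670*) was more even, at 243, 223 and 201 TPM in LD and 1204, 1202 and 1194 TPM in SD (4.96-fold lower, adjusted p = 3.29e-08). The thiazole biosynthetic enzyme gene (*Medtr1g105480*), for the vitamin thiamine, had 562, 477 and 501 TPM in LD and 1897, 1939 and 1985 TPM in SD (3.501-fold lower). A RALF signalling peptide gene (*Medtr7g015340*) was 3.12-fold lower, and the undescribed *Medtr2g079710* 4.01-fold lower. In each of these 5 genes the groups lay apart by more than the spread of either, but they were picked as DE genes, so nothing is read from that. The undescribed *Medtr4g094620* had 741, 407 and 338 TPM in LD and 1003, 1155 and 1132 TPM in SD (2.06-fold lower). The undescribed *Medtr5g084470* had 557, 318 and 180 TPM in LD and 921, 1040 and 988 TPM in SD (2.62-fold lower). In both of them the LD libraries ranged over more than the gap between the groups. *Medtr4g082860* belongs to a run described further below.

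Among the abundant rises besides rubisco, an albumin I gene (*Medtr3g067535*) had 918, 1211 and 1350.0 TPM in LD and 483, 554 and 408 TPM in SD (2.56-fold higher), and genes for a 30S ribosomal protein S16 (*Medtr1g076310*), a peptidyl-prolyl isomerase (*Medtr1g085560*) and the 1-cys peroxiredoxin PER1 (*Medtr7g105830*) were 2.05-fold, 2.08-fold and 2.05-fold higher. The undescribed *Medtr2g023540*, *Medtr3g094080* and *Medtr8g012565* were 2.87-fold, 2.27-fold and 2.15-fold higher. These 7 genes had adjusted p-values of at most 4.25e-04. For *Medtr8g012565* the LD libraries ranged widely, at 2238, 1459 and 1247 TPM against 842, 839.9 and 781 TPM in SD.

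Of 23 starch genes tested, 11 were higher and 8 lower, but the DE genes comprised 2 rises and 5 falls, and the summed level was lower in LD (1009 to 1166 TPM) than in SD (1485 to 1613 TPM). The alpha-glucan water dikinase gene (*Medtr8g069760*), whose enzyme phosphorylates starch so that it can be broken down at night, had 15.5, 11.8 and 10.3 TPM in LD and 86.6, 89.2 and 88.6 TPM in SD (6.54-fold lower, adjusted p = 2.07e-07). A starch phosphorylase gene (*Medtr3g462340*) had 15.7, 13.4 and 12.9 TPM in LD and 200.3, 199 and 215 TPM in SD (13.5-fold lower, adjusted p = 6.69e-09). Beta-amylase genes stood on both sides, *Medtr5g013640* at 1.24, 1.09 and 0.7200 TPM in LD and 15.97, 18.5 and 19.01 TPM in SD and *Medtr5g013620* at 0.443, 0.6704 and 0.373 TPM in LD and 6.39, 6.28 and 8.65 TPM in SD, 16.4-fold and 13.4-fold lower, and *Medtr2g089030* at 49.01, 49.2 and 39.3 TPM in LD and 18.6, 18.9 and 16.2 TPM in SD, 2.75-fold higher, like *Medtr2g020240* above. No pair of groups overlapped among these genes, but they were picked as DE genes, so nothing is read from that.

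Sugar genes were also mixed. A soluble acid invertase gene (*Medtr4g101630*), for an enzyme that splits sucrose in the vacuole, had 45.97, 46.4 and 37.03 TPM in LD and 13.9, 14.5 and 13.3 TPM in SD (3.34-fold higher, adjusted p = 6.82e-07), and a sucrose synthase gene (*Medtr7g106150*) was 2.56-fold higher. A neutral invertase gene (*Medtr1g084610*) was 2.09-fold lower. Sugar transport genes were called higher in 4 and lower in 6 of 19. The tonoplast monosaccharide transporter gene *Medtr5g024740* had 2.21, 2.64 and 1.77 TPM in LD and 12.3, 13.02 and 14.3 TPM in SD (5.52-fold lower, adjusted p = 5.55e-07), and the sugar porter genes *Medtr7g094110* and *Medtr7g113970* were 5.52-fold and 3.93-fold lower. A further sugar porter gene, *Medtr6g088375*, was 2.39-fold higher. Of 4 trehalose genes, only the trehalose-6-phosphate phosphatase gene *Medtr3g074180* was called (2.08-fold lower).

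**Figure D5:**
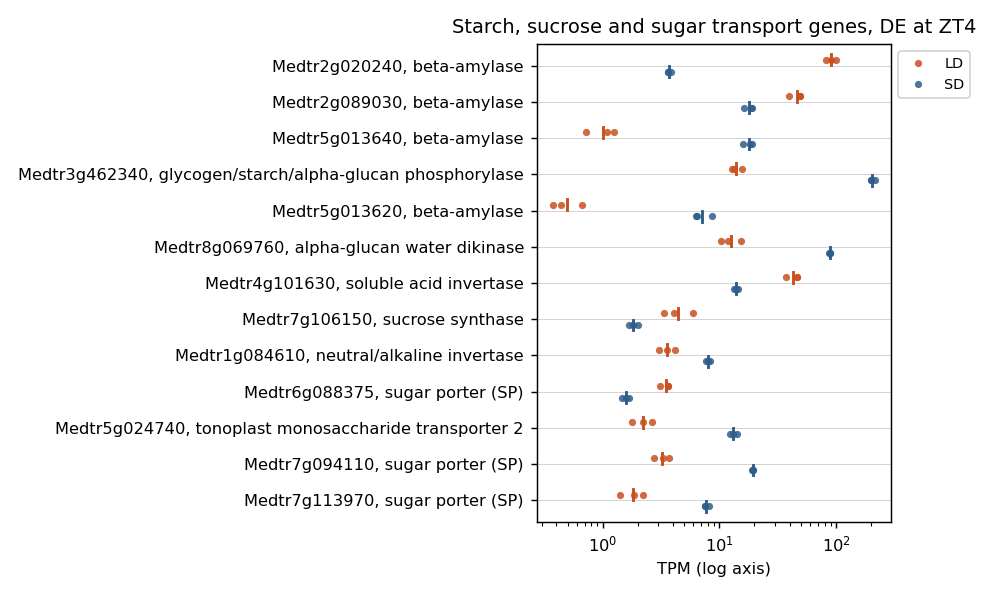
Points are the TPM of single libraries on a log axis, LD in orange and SD in blue, with the mean of 3 libraries as a short vertical line, for the starch, sucrose and sugar transport genes named in the text. Groups of a gene do not overlap, which held for 2819 of the 2849 DE genes. Among the widest separations are those of the beta-amylase genes *Medtr2g020240* and *Medtr5g013640* and of the phosphorylase gene *Medtr3g462340*.

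Of 15 cell wall loosening genes 9 were higher and 2 lower (median 0.73). Xyloglucan endotransglucosylase genes, which cut and rejoin wall polymers, included *Medtr2g089140* at 14.3, 23.4 and 12.3 TPM in LD and 2.54, 2.67 and 2.603 TPM in SD (7.09-fold, adjusted p = 1.47e-05), *Medtr3g084630* (12.8-fold) and *Medtr8g064180* (4.44-fold). LD replicate 3 was the lowest LD library for all 3 of these genes. It was the highest for the expansin A10 gene (*Medtr4g063975*), at 3.22, 4.79 and 15.7 TPM in LD and 1.32, 0.785 and 1.23 TPM in SD (7.83-fold, adjusted p = 0.00421), whose call was lost without SD replicate 2 (adjusted p = 0.0514). The expansin-like gene *Medtr2g090270* was 4.11-fold lower.

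Auxin genes were higher in 17 and lower in 4 of 34, with a median of 0.55 (0.44 with genes at 0 in a group set at their bound). The auxin canalization gene *Medtr4g129510* had at most 2 reads in an SD library and 1.49, 1.19 and 0.624 TPM in LD, a ratio of 23.3 with a counting interval of 9.68 to 72.9. An AUX/IAA gene (*Medtr2g102490*), of a family of auxin response repressors, had 3.84, 3.89 and 3.65 TPM in LD and 1.06, 1.103 and 1.205 TPM in SD (3.59-fold higher). Genes named for *auxin response factor 2* stood on both sides, *Medtr1g024025* 2.22-fold higher and *Medtr2g018690* 3.01-fold lower. The largest fall was that of *Medtr8g011650*, annotated as auxin-induced in root cultures, at 18.6, 20.2 and 17.4 TPM in LD and 128, 127 and 139 TPM in SD (6.48-fold lower, adjusted p = 4.17e-08), and the auxin-binding protein gene *Medtr2g041550* was 4.68-fold lower.

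Of 8 gibberellin genes 3 were higher and 3 lower. A GASA peptide gene (*Medtr1g025220*), of a gibberellin-responsive family, had 255, 298 and 174 TPM in LD and 54.4, 39.2 and 43.2 TPM in SD (5.61-fold higher, adjusted p = 5.28e-06). Genes for gibberellin 20-oxidase, a late step of gibberellin synthesis, went in both directions, *Medtr1g102070* 2.52-fold higher and *Medtr6g464620* 2.56-fold lower, at 2.92, 3.83 and 3.78 TPM in LD and 9.47, 9.47 and 10.1 TPM in SD. Both ethylene genes that were called, out of 3, and the 1 abscisic acid gene were higher, the last of these a call lost with any single library left out other than LD replicate 2.

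Flavonoid synthesis genes were higher in 22 and lower in 3 of 33 (median 0.74). Chalcone synthase opens this pathway, and its genes *Medtr3g083910* and *Medtr5g007713* were 7.28-fold and 3.096-fold higher, the first at 2.702, 3.201 and 2.15 TPM in LD and 0.539, 0.293 and 0.368 TPM in SD. Genes for an anthocyanidin glucosyltransferase (*Medtr5g090650*) and a flavonoid hydroxylase (*Medtr3g025260*) were 3.85-fold and 2.999-fold higher. Those for a flavonol synthase (*Medtr5g048470*) and an anthocyanin acyltransferase (*Medtr4g015180*) were 2.71-fold and 2.098-fold lower. Without SD replicate 3 the count of flavonoid genes called was 15 in place of 25.

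Ribosomal protein genes were higher in 36 and lower in 1 of 58, with a small median change (0.49), a summed level of 11976 to 15322 TPM in LD and 9469 to 10147 TPM in SD, and 2 DE genes, *Medtr4g081180* (3.75-fold) and *Medtr1g013440* (2.95-fold). Small heat shock protein genes differed in direction. The peroxisomal *Medtr5g091960* had 24.7, 13.1 and 9.04 TPM in LD and 167, 169 and 172 TPM in SD (10.2-fold lower, adjusted p = 9.10e-06), and *Medtr3g086050* was 2.695-fold higher. Of 14 nitrogen genes 4 were higher and 5 lower, with the peptide and nitrate transporter genes *Medtr1g026750* 7.07-fold higher and *Medtr2g101640* 2.46-fold lower. Of 5 heat shock genes 2 were higher and 2 lower, and 1 of each without SD replicate 2 or 3. Iron handling genes were higher in 3 of 6, with none lower, and in 1 of 6 without SD replicate 1 or 2.

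Markers of nodules and seeds, and of guard cells and epidermis within the leaf, were followed as well. These lists too hold only described genes, of which 61.9% were called, 1870 higher and 863 lower. Members of these families without a description are not in them. All 4 nodule genes of the list, 2 for leghemoglobin and 2 for nodule cysteine-rich peptides, were called higher in LD, and none was at 0 in all libraries, though *Medtr6g021615*, a peptide gene with at most 9 counts, was at 0 in SD. Their summed level was 17.8 to 22.0 TPM in LD and 1.45 to 2.57 TPM in SD, most of it from the peptide gene *Medtr7g052640* at 12.2, 11.9 and 18.7 TPM in LD and 1.44, 1.14 and 1.602 TPM in SD (10.95-fold, adjusted p = 1.93e-05). The leghemoglobin genes *Medtr5g081030* and *Medtr5g080400* had 2.45, 3.04 and 1.31 TPM and 2.06, 1.97 and 1.81 TPM in LD. The seed list gave 12 of 17 higher and 1 lower, but the members that moved most were not storage proteins. They were leguminosin secreted peptide genes such as *Medtr4g093890* (7.95-fold higher) and *Medtr7g017440* (4.62-fold lower) and late embryogenesis abundant glycoprotein genes such as *Medtr7g116930* (4.11-fold higher). All 3 genes of the guard cell and epidermis list were higher, at a sum of 2.41 to 4.53 TPM in LD and 0.590 to 0.884 TPM in SD. They were led by the aspartic protease gene *Medtr1g039270* (8.76-fold), followed by *Medtr1g111350* (4.05-fold). The part of these tissues and cell types in the other results was not tested.

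DE genes with neighbouring gene numbers formed 42 runs of 3 or more in one direction, 22 higher and 20 lower in LD, with 133 genes in all. The longest had 6 undescribed genes, *Medtr4g072280* to *Medtr4g072330* on chromosome 4, which were 2.17-fold to 4.16-fold higher and together took 194 TPM in LD and 73.9 TPM in SD. Also on chromosome 4 but far from it in number, the 4 genes from *Medtr4g082830* to *Medtr4g082900* were 3.62-fold to 25.3-fold lower. They include *Medtr4g082860* and *Medtr4g082883*, and together took 256 TPM in LD and 2279 TPM in SD. A run on chromosome 5, *Medtr5g084460* to *Medtr5g084540*, was also abundant and lower, at 760.1 TPM in LD and 2947 TPM in SD. Its member *Medtr5g084530* had 102, 53.1 and 33.9 TPM in LD and 795, 859 and 923 TPM in SD (12.9-fold lower, adjusted p = 1.19e-05), while *Medtr5g084460* lost the call without LD replicate 2, SD replicate 2 or SD replicate 3 (adjusted p 0.0555 to 0.0641). On chromosome 8, 4 genes from *Medtr8g068580* to *Medtr8g068620*, with 2 for caffeic acid O-methyltransferase of lignin synthesis, were 2.03-fold to 3.46-fold higher, of which *Medtr8g068600* lost the call without SD replicate 2 or 3 (adjusted p = 0.0584 and 0.0567).

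A run of 4 hypothetical protein genes on chromosome 2 varied widely between libraries of the same group. *Medtr2g084190* had 43.7, 10.97 and 174 TPM in LD and 1.05, 3.36 and 23.2 TPM in SD, so that replicate 3 was the highest library of each group and SD replicate 3 lay above LD replicate 2. *Medtr2g084160*, at 14.7, 5.26 and 32.3 TPM in LD and 0.401, 0 and 3.56 TPM in SD, was the only one of the run whose groups did not overlap, and it lost the call without SD replicate 1 or 2 (adjusted p = 0.0585 and 0.0677). The other 3 genes had adjusted p-values of 0.0391 to 0.0483, and without LD replicate 3, SD replicate 1 or SD replicate 2 none of them passed (0.160 to 0.268). With every library kept, none of them passed with DESeq2 (0.0838 to 0.148) or voom (0.0830 to 0.168). For *Medtr2g084170* and *Medtr2g084180* leaving out LD replicate 1 also ended the call (0.0604 and 0.0745). A run on an unplaced scaffold, *Medtr0002s0250* to *Medtr0002s0270*, also had a wide spread within LD. *Medtr0002s0250* had 14.5, 42.4 and 111 TPM in LD and 21.6, 14.4 and 8.16 TPM in SD, with LD replicate 1 inside the SD range. All 3 genes of the run lost the call without LD replicate 2, LD replicate 3 or any single SD library (adjusted p 0.0575 to 0.177). With every library kept, all 3 also lost it with voom (adjusted p 0.066 to 0.128), and *Medtr0002s0250* with DESeq2 (0.053).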

How the data were processed

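RNA was sequenced from the first trifoliate leaf to unfurl, and the 6 ZT4 libraries were all made with the TruSeq Stranded mRNA kit. Reads were trimmed with BBDuk, and the authors quantified them with Salmon 0.8.2 against the Mt4.0v2 transcripts and deposited estimated counts per gene. The authors also deposited a length-corrected signal per gene in TPM, which sums to 1000000 in each library. Of the ZT4 counts 12.1% were not whole, and all were rounded. TPM served for levels only.

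Genes with a total above 1 count over the 6 libraries were tested with edgeR 4.0.16 (R 4.3.3), using TMM scaling, the quasi-likelihood test, a prior count of 0.125 and Benjamini-Hochberg adjustment over all genes tested at ZT4. Every adjusted p in the text comes from this test unless another is named. "Called" means an adjusted p under 0.05. DE adds a log2 fold change beyond 1 in size and a mean normalised count above 10. Folds are ratios of mean normalised counts. Against a group at 0 they were set against 3 counts a library, and with 1 to 3 counts a library they carry an exact 95% interval, which covers counting error only.

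The comparison, its members and the gene lists were chosen with earlier results of these data known. Genes were named by rule: the 12 largest changes of each direction without overlap, ranked by the log2 fold change with a prior count of 2, the 8 most abundant DE genes of each direction, called or all members of candidate lists, up to 4 DE genes of each direction in functional lists, and the 6 longest runs. Functional lists were matched by words in the study's descriptions, and the aquaporin list matched 0 genes. No identifier (0 of 50444) matched the RefSeq table, so no coordinates are given. Alternatives were DESeq2 1.42.0, limma 3.58.1 (voom), other scalings, filters, priors and adjustments, thinned counts, a replicate block and each library left out.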

Additional observations from a re-analysis of the deposited data

How the results depend on the processing

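The count of called genes was 9024 and lay between 7708 (DESeq2) and 9438 (library totals) under the other tests, scalings, filters and adjustments, and between 6391 and 9730 with 1 library left out. The DE count of 2849 lay between 2609 and 3048 with 1 library left out, and was 1368 with a minimum absolute log2 fold change of 1.5. With library totals in place of TMM the median log2 fold change of all genes moved by -0.0853. Candidate calls numbered 65 to 84 with 1 library left out, and candidate DE genes 34 to 39. Functional list calls numbered 150.0 to 205 with 1 library left out. With the replicate number as a block, 8722 genes were called and 2873 were DE. The numbers did not pair the libraries, since deviations of same-numbered libraries correlated at -0.09, 0.006 and 0.03.

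Some named genes with few reads were filtered out of some of the alternatives. Of 210 named genes 172 kept their direction and their side of the threshold under every alternative that gave them an adjusted p, and 38 did not. Of these, 2 turned in sign, both far from the threshold. *MtZTL* had a log2 fold change of -0.013 with library totals. *MtCDFa* ranged from -0.70 to 0.030 with 1 library left out, the positive value being without LD replicate 1. The cause was not tested. With 3 pools a group, p-values measure the spread between these pools.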

Other observations

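The LD libraries were spread along the second principal component (13.8% of the variation), at 57.2, 14.3 and -62.6 for replicates 1, 2 and 3, while the SD libraries lay between -4.18 and -1.59. Between LD replicates 1 and 3, 1003 of 20042 genes differed by more than 2-fold, against 552 and 611 for the other LD pairs and 354 to 375 for the SD pairs. The 10 most abundant genes took 15.7% to 16.8% of the counts in LD and 13.4% to 13.6% in SD.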
